A study of Homo sapiens with 3 samples.

Results

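The contacts described here were the promoter capture Hi-C contacts of the replication-dependent histone gene cluster on the short arm of chromosome 6 in human cardiomyocytes. A contact was chosen by its deposited call: it was kept when a replicate listed it with both of its HindIII fragments inside chr6:26000000-27900000 of GRCh37, and contacts of the 3 replicates were matched on exact fragment coordinates. The union held 1346 contacts of 200809 in the whole data set, or 0.670%. Replicates 1, 2 and 3 listed 897, 915 and 844 of them, a mean of 885 ± 36.9 (SD, n = 3). The window was itself selected on these calls, so the number of its contacts is a description with no test.

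The data came from 1 condition, cardiomyocytes derived from human embryonic stem cells (hESC-CMs), in 3 biological replicates. All replicates started from the established embryonic stem cell line WA09 (H9) at passage 32, were enriched for 6 days in medium with lactate in place of glucose, and had a stated purity of at least 80 to 90% by the markers MYH7 and TNNT2, so they speak for 1 genetic background and no undifferentiated control was compared here. Chromatin was fixed in 2% formaldehyde for 10 minutes, and ligation products were captured with baits on HindIII fragments that carry gene promoters. In each contact the captured fragment is called the promoter fragment and the other end the interacting fragment. Each contact carries a CHiCAGO score, a measure of how far the read pairs exceed those modelled for the distance and the fragments, and the lowest score listed is 5. Whole replicates listed 109731 to 112473 contacts. Reads per contact and per replicate were not analysed here, so a contact missing from a replicate has a score under the listing limit there and is not shown to be absent.

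Replication-dependent histone genes supply the core histones H2A, H2B, H3 and H4 and the linker histone H1 when DNA is copied in S phase. Their transcripts end in a conserved stem-loop instead of a poly(A) tail, and are made and processed in the histone locus body, a nuclear structure organised by NPAT together with the U7 small nuclear ribonucleoprotein. Cardiomyocytes leave the cell cycle as they mature, and these data measure the position of the genes relative to each other and not their transcription.

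The 50 listed histone genes of the window lay in 3 blocks separated by gene-poor or unrelated sequence. Block 1 ran from chr6:26017260-26285866, spanned 269 kb and held 29 genes from H1-1 to H4C8. Block 2 ran from chr6:27093676-27115341, spanned 21.7 kb and held 5 genes from H2BC11 to H2AC12. Block 3 ran from chr6:27775257-27861669, spanned 86.4 kb and held 16 genes from H2BC13 to H2BC17. The gaps between them measured 808 and 660 kb, and hold the butyrophilin genes, zinc finger genes and genes for small RNAs. Coding sequence of all 50 genes lay on promoter fragments with calls. The blocks held 24, 3 and 12 promoter fragments, and 37 of these 39 carried histone coding sequence.

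Sequence from the GRCh37 assembly is printed for the fragments at the centre of the contacts. Within the cluster H2A and H2B genes often lie head to head and share 1 short promoter. The promoters of 3 pairs are shown from the upper strand, because their fragments carried the highest scores. In them CCAAT boxes, TATAAA boxes, the octamer ATTTGCAT and a HindIII site are in capitals, in either orientation. The H2BC12/H2AC12 promoter lies at chr6:27114635-27114884 in block 2, between the 5′ ends of H2BC12 (ENSG00000197903) and H2AC12 (ENSG00000274997). The H2AC14/H2BC14 promoter lies at chr6:27782556-27782799 in block 3. The H2AC17/H2BC17 promoter, at chr6:27860964-27861202 at the far end of block 3, holds the HindIII site AAGCTT, which puts the ends of this promoter on different fragments.
H2BC12/H2AC12: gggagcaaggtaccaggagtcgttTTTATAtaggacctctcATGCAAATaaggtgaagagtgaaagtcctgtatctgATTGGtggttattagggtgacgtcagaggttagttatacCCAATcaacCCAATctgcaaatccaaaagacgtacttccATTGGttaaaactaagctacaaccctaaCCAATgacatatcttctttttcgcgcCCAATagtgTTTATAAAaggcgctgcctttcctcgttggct
H2AC14/H2BC14: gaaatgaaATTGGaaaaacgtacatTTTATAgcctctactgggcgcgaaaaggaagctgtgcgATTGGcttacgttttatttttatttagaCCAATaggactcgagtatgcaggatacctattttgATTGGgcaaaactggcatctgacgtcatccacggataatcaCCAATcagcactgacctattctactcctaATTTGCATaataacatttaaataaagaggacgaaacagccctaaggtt
H2AC17/H2BC17: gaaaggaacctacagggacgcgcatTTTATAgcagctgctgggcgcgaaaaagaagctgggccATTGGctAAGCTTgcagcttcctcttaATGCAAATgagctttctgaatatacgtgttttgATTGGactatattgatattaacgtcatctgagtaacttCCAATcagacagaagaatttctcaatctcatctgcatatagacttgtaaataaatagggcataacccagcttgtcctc
The first of these sequences held 3 TATAAA boxes, 6 CCAAT boxes and 1 octamer, the second 1, 5 and 1, and the third 1, 3 and 1, with overlapping copies on opposite strands counted separately. In the 250 bases upstream of each of the 50 histone genes, on either strand, CCAAT was found for 43 genes (86%), against 33.1% of 20176 protein-coding promoters of the same length. TATAAA was found for 33 (66%), against 10.1%. The octamer ATTTGCAT was found for 18 (36%), against 1.56%, and 17 of the 18 were H2A or H2B genes. Upstream windows of head-to-head genes overlap, so a shared promoter counts for both of its genes.

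The sequences of 3 short interacting fragments are printed whole, because many histone promoter fragments shared them although none carries a listed histone gene. The remains of the HindIII site at both ends and any motif of the same kind are in capitals. The first, chr6:27106154-27106417, is 264 bases long, lies in block 2 at 644 bases from H4C9 and overlaps an exon of a long non-coding RNA (ENSG00000290032). The second, chr6:27789606-27789780, is 175 bases long, lies in block 3 at 2090 bases from H4C11 and overlaps no annotated exon. The third, chr6:27145361-27145592, is 232 bases long, lies outside the blocks and also overlaps no annotated exon.
block 2 fragment: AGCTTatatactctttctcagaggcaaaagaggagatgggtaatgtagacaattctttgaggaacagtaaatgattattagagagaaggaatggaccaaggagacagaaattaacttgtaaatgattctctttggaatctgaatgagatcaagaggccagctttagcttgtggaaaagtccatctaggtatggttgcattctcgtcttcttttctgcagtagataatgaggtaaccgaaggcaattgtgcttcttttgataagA
block 3 fragment: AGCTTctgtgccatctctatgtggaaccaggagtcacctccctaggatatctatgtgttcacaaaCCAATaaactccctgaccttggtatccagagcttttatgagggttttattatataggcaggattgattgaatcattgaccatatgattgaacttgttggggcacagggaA
fragment outside the blocks: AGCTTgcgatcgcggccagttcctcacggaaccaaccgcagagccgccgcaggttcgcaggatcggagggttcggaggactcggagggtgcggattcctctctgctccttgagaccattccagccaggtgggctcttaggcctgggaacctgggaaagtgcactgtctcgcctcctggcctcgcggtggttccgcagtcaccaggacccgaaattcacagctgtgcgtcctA
They were in contact with 34, 25 and 16 promoter fragments of the window. Their G and C content was 37.9, 42.3 and 62.9%.

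Most contacts joined different histone blocks. Of the 1346 contacts, 882 (65.5%) had 1 fragment in one block and the other fragment in another block. Replicates 1, 2 and 3 listed 612, 616 and 598 of these, a mean of 609 ± 9.45 (SD, n = 3). They made up 68.2, 67.3 and 70.9% of the replicates' contacts in the window. Block 1 and block 3, at the ends of the cluster and 1486 to 1843 kb apart, shared 619 contacts. Block 1 and block 2 shared 165, and block 2 and block 3 shared 98. The small block 2 therefore took part in 263 contacts with the other blocks from 8 fragments. Contacts inside a block were few, with 51 in block 1, 0 in block 2 and 6 in block 3. A further 331 contacts (24.6%) joined a block to a fragment outside the blocks, and 76 (5.65%) joined fragments that were both outside. Both fragments lay in a block or within 50 kb of one in 1217 contacts (90.4%).

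**Figure D1:**
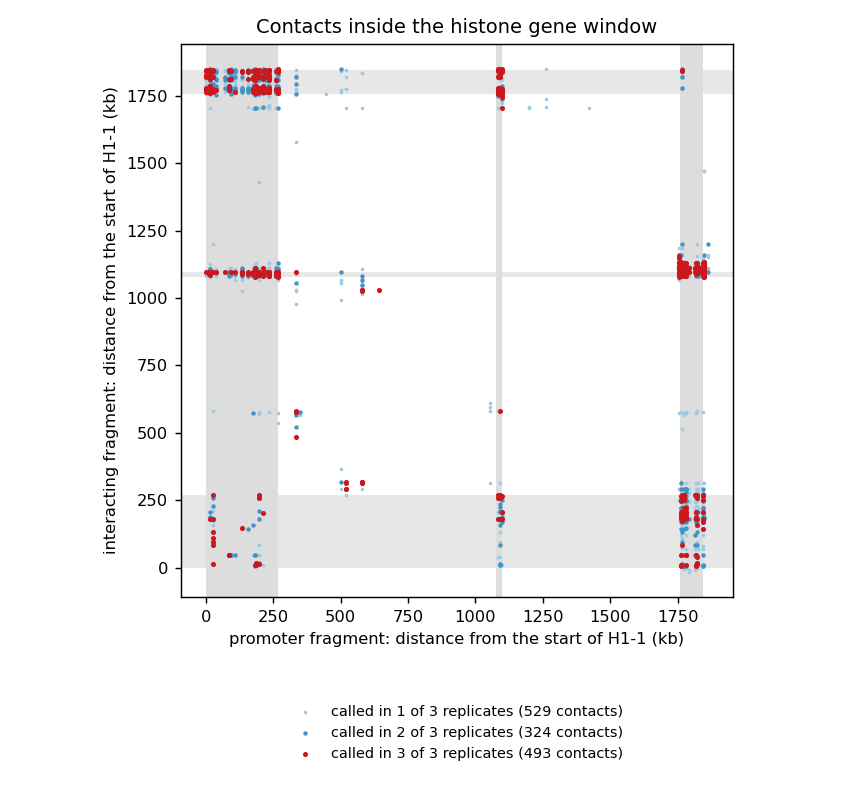
Each point is 1 of the 1346 contacts, placed by the distance of its promoter fragment (x axis, kb) and its interacting fragment (y axis, kb) from the start of H1-1. Grey bands mark the 3 histone blocks and colours the number of replicates; points gather where bands of different blocks cross, and few lie where a block meets itself.

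The distances followed from this layout. The median distance between fragment midpoints was 1497 kb, with a range of 7.42 to 1843 kb. It was 1479, 1435 and 1260 kb in replicates 1, 2 and 3, 940 kb for the contacts called in all 3 and 935 kb in the merged calls. By comparison, the median of all same-chromosome contacts of the data set was 716 kb. Of the members, 91.8% spanned over 500 kb, against 44.8% of all same-chromosome contacts within 1.9 Mb. The longest class, 1 to 1.9 Mb, held 781 contacts. Only 29 contacts were under 100 kb. The genome was also cut into 1644 windows of 1.9 Mb on a fixed grid, leaving out contacts that crossed a grid line. Among those not touching the cluster the highest number of contacts was 660. The median over all windows with a contact was 49. The chosen window was placed around the cluster and not on this grid, so its number of contacts cannot be ranked among these.

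The number of contacts was set against the number of fragment pairs that could have been listed. Between different blocks, 882 of 2124 ordered pairs of a promoter fragment and another HindIII fragment were called in at least 1 replicate, or 41.5%. For pairs 500 kb to 1 Mb apart the share was 50% (95% Wilson interval 45.4 to 54.6%), and elsewhere in the genome 0.679% of pairs at that distance were called. For pairs 1 to 1.9 Mb apart it was 39.3% (37 to 41.6%), against 0.294% elsewhere. Inside a block the share was 2.22% (1.53 to 3.21%) under 100 kb and 4.44% (3.13 to 6.26%) from 100 to 500 kb, against 0.787% and 1.69% elsewhere. Pairs of a block fragment and a fragment outside the blocks were called in 3.03% of cases from 500 kb to 1 Mb and in 1.68% from 1 to 1.9 Mb. Where both fragments lay outside the blocks, 0.983% of all pairs were called. Pairs elsewhere were not restricted to gene-dense stretches, so they are unlike the pairs between blocks in gene and promoter density. Wilson intervals here cover counting error only, and pairs that share a fragment are not independent.

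**Figure D2:**
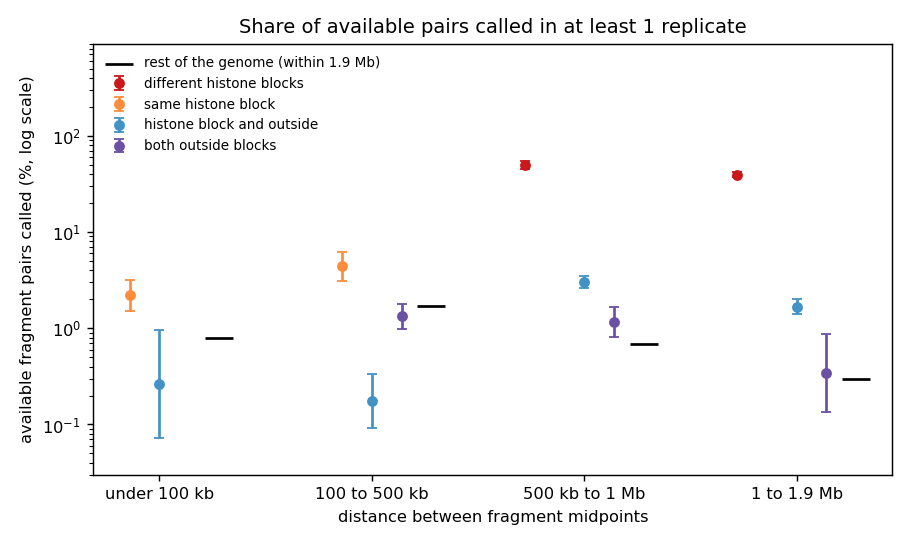
Percent of available fragment pairs called in at least 1 replicate (y axis, log scale) by distance class (x axis), for pairs in different blocks, in the same block, in a block and outside, and both outside, with 95% Wilson intervals; black bars give the rest of the genome. Pairs in different blocks sit at 50 and 39.3% where the rest of the genome is at 0.679 and 0.294%; a class with no called pair has no point.

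Across the replicates, 493 of the 1346 contacts (36.6%, 95% Wilson interval 34.1 to 39.2%) were called in all 3, 324 in 2 and 529 in 1. The share was 84.0% when a call within 5 kb at both fragments counted as the same contact. With 41.5% of the available pairs between blocks called, that count cannot separate a repeated contact from a neighbouring one. It was not made for the rest of the data. On exact matching, the share over the whole union was 23.9%. Because the share falls with distance in the rest of the data, it was also read within distance classes. From 500 kb to 1 Mb, 218 of 455 contacts (47.9%) were called in all 3, against 26.5% elsewhere. From 1 to 1.9 Mb the count was 241 of 781 (30.9%), against 18.9% elsewhere. From 100 to 500 kb it was 22 of 81 (27.2%), against 36.4% elsewhere, and under 100 kb 12 of 29 (41.4%), against 42.1%. The short contacts of the window were thus near or under the background, and the long ones above it. Block 2 and block 3 shared contacts that were listed in nearly equal number by each replicate (81, 79 and 80), and 63 of these 98 contacts (64.3%, 54.4 to 73.1%) were called in all 3. For block 1 and block 3 the share was 36.3% (32.7 to 40.2%).

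Scores in the window were higher than in the data set as a whole. The median score was 8.09, 7.94 and 8.48 in replicates 1, 2 and 3, against 6.63, 6.64 and 6.65 over all contacts of the same replicates. The score and the number of replicates moved together. Of the 198 contacts scored 5 to 6 in replicate 1, 24.7% were called in all 3 replicates, and of the 66 scored 20 or more, 98.5%. Scores of contacts shared by a pair of replicates had Spearman correlations of 0.64 to 0.66 over 597 to 605 contacts, which share fragments and are not independent. At the lower edge of the set, an H2AC16 fragment and an H4C8 fragment without histone coding sequence had a score of 5.00 in replicate 2 alone. An H1-5 fragment and chr6:27131371-27131711 also had a score of 5.00, in replicate 1 alone, and the H2BC13/H2AC13 fragment and an RPL10P2 fragment had 5.01 in replicate 2 alone. Contacts under the limit were not listed.

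The highest scores centred on the fragment that carries H2BC12 and H2AC12. This fragment, chr6:27113447-27115524, is 2078 bases long, holds both small genes and the promoter printed above, and was also the interacting fragment with the most promoter fragments. Its highest contact was with the H2AC14/H2BC14 fragment in block 3, chr6:27782229-27786337, 670 kb away. The score was 35.71, 78.7 and 35.01 in replicates 1, 2 and 3, and the mean was 49.8 ± 25.02 (SD, n = 3). Replicate 2 stood far above the other replicates, which nearly coincided. The contact with the H2AC8 fragment of block 1 scored 35.16, 59.59 and 34.46 (43.1 ± 14.3), again with replicate 2 highest. In the contact with the H3C12/H2AC17 fragment at the far end of block 3 replicate 1 was highest instead, with 39.92, 32.26 and 32.12. The H2BC3/H3C3 fragment scored 34.78, 34.78 and 28.22 with it, the H4C5 fragment 28.17, 29.54 and 38.9, and the H3C11 fragment 34.47, 28.45 and 31.15. These genes encode different core histones. All 3 scores of the H2AC14/H2BC14 contact lay above those of the H2BC3/H3C3 and H3C11 contacts, and the scores of H2BC3/H3C3, H4C5 and H3C11 overlapped each other.

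Of the 8 highest contacts, 2 did not involve that fragment. The H4C9 fragment chr6:27106418-27107452 of block 2, on which a gene for histone H4 starts, and the H3C10/H2AC14 fragment of block 3 scored 25.11, 34.6 and 35.7. The H2AC8 and H3C12/H2AC17 fragments, which lie 1645 kb apart, scored 33.77, 28.37 and 26.75. All 8 contacts joined different blocks. None of the 8 pairs of fragments shared a stretch of 200 bases at 90% identity.

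**Figure D3:**
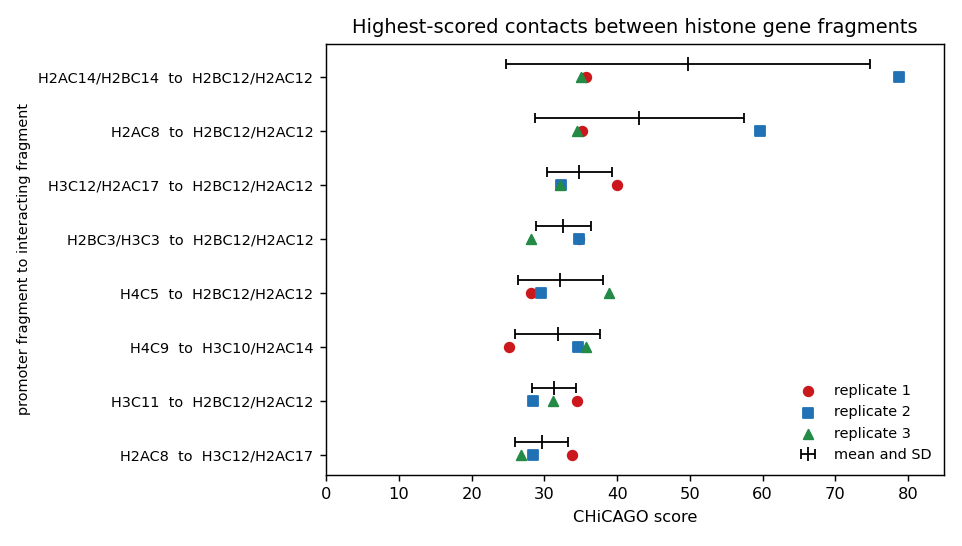
CHiCAGO score (x axis) in each replicate of the 8 highest-scored contacts between histone gene fragments (rows), with the mean and SD above the points. Of the rows, 6 end on the H2BC12/H2AC12 fragment, and replicate 2 lies apart from replicates 1 and 3 in the upper 2 rows, at 78.7 and 59.59.

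As an interacting fragment, the H2BC12/H2AC12 fragment was in contact with 40 promoter fragments, with 38, 39 and 38 in replicates 1, 2 and 3, and with 35 in all 3. Taken in either order of the pair, it was called with each of the 12 promoter fragments of block 3 in every replicate. With the 24 promoter fragments of block 1 it was called in 23 cases by each replicate, and with 21 of them in all 3. The 40 contacts had a median mean score of 15.7, with a range of 6.45 to 49.8. The fragment next in number was the 264-base fragment printed above, with 34 promoter fragments, 31, 25 and 26 by replicate. Its highest contact, with the H3C4/H2AC7 fragment 908 kb away, scored 23.28, 30.15 and 32.94. Then came the neighbouring fragment chr6:27107453-27111875 with 33 and the fragment chr6:27097292-27099101 with 31. Both overlap the annotated record of a histone gene, H4C9 and H2BC11 in turn, but hold no histone coding sequence. The H2BC17 fragment chr6:27861035-27864923 of block 3 followed with 28. Of these 5 fragments, 4 lay in block 2.

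As promoter fragments, those of blocks 1 and 3 led. The fragment of H4C12 (ENSG00000273542) had 53 partners in the union, 31, 40 and 40 in the 3 replicates and 21 in all 3. The H3C12/H2AC17 fragment had 52 partners (34, 37 and 40), the H3C10/H2AC14 fragment 50 (40, 35 and 40), the H2AC8 fragment 46 (24, 37 and 29) and the H3C4/H2AC7 fragment 43 (37, 36 and 35). The H2AC14/H2BC14 fragment tied with the last of these at 43 (26, 30 and 15). The order of the first 5 was not the same in each replicate, and their ranges overlapped. These counts take each pair in its listed order, and only 8 contacts of the window were listed in both orders. Taken in either order, H4C12 and H3C12/H2AC17 had 78 partners each, H3C10/H2AC14 had 77 and H2BC12/H2AC12 of block 2 had 65. H2AC8 stayed at 46 on that count. The 38 promoter fragments that overlap the annotated record of a histone gene had 13 to 53 partners in the window, with a median of 30.5. The lowest, H2BC4/HFE, holds no histone coding sequence, and the next, H2AC15/H2BC15, had 15. The median for promoter fragments in the rest of the genome, counting all their partners, was 6, and 25.5% of them had 13 or more. The Spearman correlation between the length of a promoter fragment and its number of partners was -0.22 over the 39 promoter fragments in the blocks. This is a description across fragments that share libraries and partners.

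Promoter fragments without a histone gene had 0 to 22 partners, under the histone median of 30.5. They overlapped the histone range of 13 to 53 by gene record, and that of 15 to 53 by coding sequence. Butyrophilins are immunoglobulin-like membrane proteins, and their 3 promoter fragments had 0 to 3 partners. The 3 zinc finger promoter fragments had 0 to 2. The 6 promoter fragments of other annotated genes, mostly small RNA genes and pseudogenes, had 0 to 22, and the highest were RNU6-1259P with 22 and RNU7-26P with 21. The 1 promoter fragment with no annotated gene start had 19. Among 5 promoter fragments of other protein-coding genes the range was 2 to 17, and the highest was ABT1, a factor in ribosome assembly. A fragment with the U6 pseudogene RNU6-1259P scored 14.31, 24.34 and 25.93 with the ABT1 fragment 245 kb away, and 12.03, 16.08 and 14.33 with the BTN1A1 fragment. The ZNF322 fragment had 1 contact in all 3 replicates, with chr6:27045745-27047475, at 5.76, 6.89 and 6.03. The 4 promoter fragments with no partner in the window as promoter fragments were those of BTN1A1, ZNF391, TRNAI6 and LARRPM/TRNAI2.

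**Figure D4:**
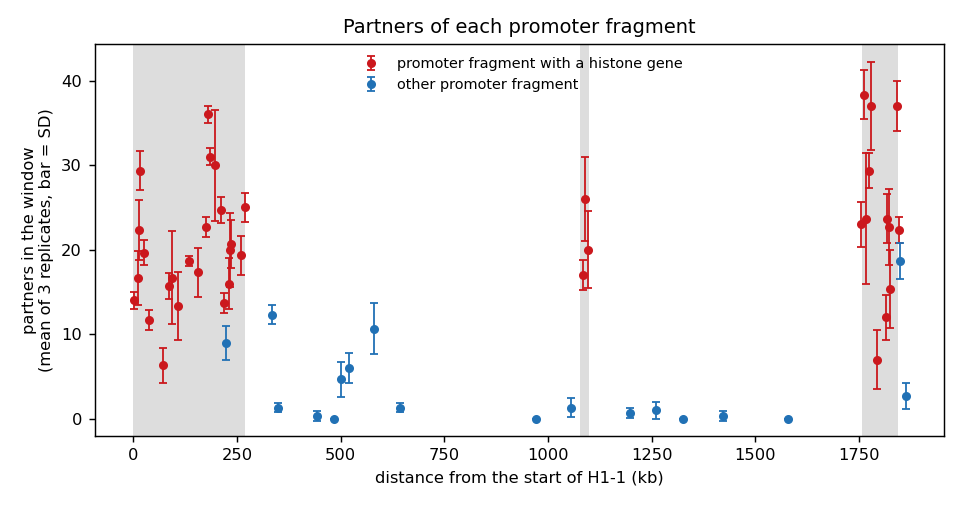
Number of partners in the window (y axis, mean and SD of 3 replicates) for each of the 56 promoter fragments with a call anywhere, by distance from the start of H1-1 (x axis, kb), with the 3 blocks in grey. Most histone gene fragments lie above the fragments between the blocks, with overlap. RNU6-1259P had 11, 13 and 13 partners and ABT1 8, 10 and 14, against 9, 3 and 9 for H2AC15/H2BC15 in block 3. The H2BC4/HFE fragment in block 1, counted as histone by gene record but without histone coding sequence, had 8, 7 and 4.

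In the window 415 contacts (30.8%), counted as ordered pairs, had a promoter fragment at both ends, against 9.69% in the whole union. Promoter fragments were themselves dense in the blocks, with 24 of 63, 3 of 8 and 12 of 33 HindIII fragments in blocks 1, 2 and 3. The 30.8% was not corrected for that density. Pairs of promoter fragments were then taken without regard to order, so their shares are not comparable with those of ordered pairs above. No share of such pairs was computed for the rest of the genome. Between blocks, 326 of 396 possible pairs of promoter fragments (82.3%, 95% Wilson interval 78.3 to 85.8%) were called in at least 1 replicate, and 175 (44.2%) in all 3. The replicates listed 246, 251 and 249 of these pairs. For block 2 and block 3 the count was 32 of 36 pairs in any replicate and 29 in all 3. For block 1 and block 2 it was 62 of 72 and 35, and for block 1 and block 3 it was 232 of 288 and 111. Inside blocks, 32 of 345 pairs (9.28%, 6.65 to 12.8%) were called in any replicate and 14 in all 3.

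The contacts inside blocks were unevenly spread over promoter fragments. Of these 57 contacts, 31 belonged to 3 promoter fragments, H2BC3/H3C3 with 15, H2AC8 with 10 and H2AC14/H2BC14 with 6, and 25 of the 39 block promoter fragments had none. The highest was H2BC3/H3C3 with H3C4/H2AC7, 156 kb apart, with a score of 13.29, 22.2 and 14.7. The same 3 fragments were the only promoter fragments of the blocks that were never the interacting fragment of another promoter in the window, where the median of the 39 was 5 promoters. Of the 1542 promoter fragments elsewhere with at least 28 partners, the lowest number among the 3, 466 (30.2%) were never listed as an interacting fragment anywhere in the data set. On that wider count 1 of the 3, H2AC8, was listed, with TRIM27 outside the window. Of the 3, H2AC14/H2BC14 and H2AC8 gave the highest-scored contacts above. Without any contact of these 3 fragments, 26 contacts inside blocks and 817 between blocks were left. How the 3 fragments were treated in calling was not tested.

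**Figure D5:**
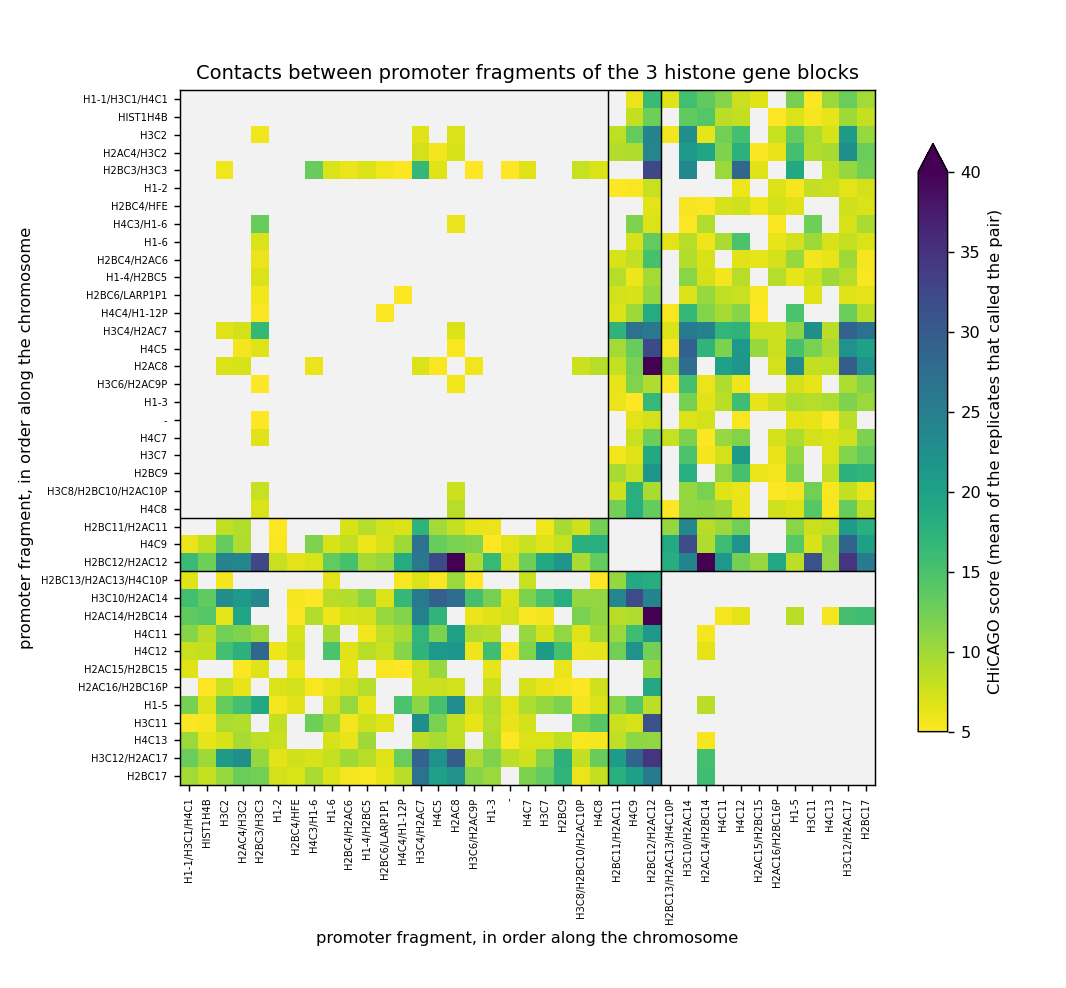
Mean CHiCAGO score (colour, with values over 40 in the darkest shade) for each pair of the 39 promoter fragments of the blocks, in order along the chromosome on both axes, over the replicates that called the pair; grey means not called and lines separate the blocks. Cells between blocks are filled for 326 of 396 pairs, and those inside blocks fall mostly on 3 rows, H2BC3/H3C3, H2AC8 and H2AC14/H2BC14.

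By histone type, fragments with coding sequence of all 5 types took part. The 11 H2A genes lay on promoter fragments with a median of 36 partners and took part in 557 contacts, of which 42.5% were called in all 3 replicates. The 12 H2B genes had a median of 28.5 partners and 452 contacts (38.1%), the 10 H3 genes 33.5 and 428 (46.3%), and the 11 H4 genes 35 and 458 (38.4%). The 6 genes for linker histone H1 had the lowest median, 23 partners, and 230 contacts (30.4%). Ranges of partners overlapped between all types, 21 to 36 for H1 and 15 to 52 for H2A. Several fragments hold genes of more than 1 type, and no H1 or H3 gene lies in block 2. Counting each gene by its whole annotated record, 520 contacts (38.6%) joined 2 fragments with a listed histone gene, 40.8, 42.7 and 44.5% by replicate. Of the 520, 47.1% were called in all 3 replicates, against 29.7% of the 737 contacts with 1 such fragment and 32.6% of the 89 with none. There were 9 gene records over 2 kb, the longest, of H2BC4, at 37.6 kb. By coding sequence alone the count was 395 (29.3%), of which 49.4% were called in all 3.

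The stem-loop at the end of histone transcripts was used as a mark that the rule did not use. It was searched on both strands as GGCTCT and AGAGCC with 4 bases between them. The window held 40 copies on 32 of its 560 HindIII fragments. All 32 were among the 174 fragments with a contact, and 0 of the 386 fragments without a contact held one. Of the 32, 31 lay in a block, 30 carried histone coding sequence and 27 were promoter fragments. Coding sequence of all listed genes already lay on promoter fragments with calls, so this match is no separate support. Contacts with a stem-loop on both fragments numbered 220, and 51.4% of them were called in all 3 replicates.

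Interacting fragments were not limited to gene fragments. In the stretch just past block 2, chr6:27115525-27145592, 8 of the 13 fragments, none with a gene start, were in contact with 11 to 26 promoter fragments each. The highest contact there joined the H2BC13/H2AC13 fragment of block 3 to chr6:27127847-27128724, 645 kb away, at 25.82, 25.27 and 29.43. On the far side of block 3, the 560-base fragment chr6:27864924-27865483 carries RNU7-26P, a pseudogene of the U7 small nuclear RNA that processes histone transcripts. It had 21 partners, 21, 17 and 18 by replicate, and 16 in all 3. Of the fragments within 50 kb of a block, 47 of 72 (65.3%) had a contact, against 22 of 232 (9.48%) in the rest of the gap between blocks 1 and 2 and 16 of 152 (10.5%) between blocks 2 and 3.

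Some contacts left the window. There were 202 with 1 fragment inside, 174 on chromosome 6 and 28 with other chromosomes. Of the 202, 7 were called in all 3 replicates, where the share over the whole union was 23.9%. Contacts leaving other windows of this length were not counted, so 202 cannot be called low or high. Of the 174, 37 ended on the promoter fragment of TRIM27, chr6:28887167-28895834, which encodes a RING finger protein. In all 3 replicates it was in contact with 4 fragments. With the H2BC12/H2AC12 fragment it scored 17.93, 52.24 and 12.93, with replicate 2 again far over the others. With the H4C12 fragment it scored 13.09, 17.54 and 16.91. The 1 contact with another chromosome in all 3 replicates joined the H3C4/H2AC7 fragment to chr1:149816397-149817126, among the histone genes of chromosome 1, at 6.18, 6.18 and 6.07. No histone gene overlaps that fragment. Another 5 contacts ended on fragments with other histone genes, all on chromosome 1 and each in 1 replicate. Of 14 listed genes of histone transcription and processing elsewhere in the genome, 11 lay on promoter fragments with a call, and 0 contacts joined them to the window. With 202 contacts leaving the window and 19019 promoter fragments outside it, a count of 0 says little about these genes.

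Other gene clusters gave fewer contacts. The clustered protocadherin genes on chromosome 5, which encode cell adhesion molecules, spread over 727 kb and gave 248 contacts from 35 promoter fragments, of which 28.2% (95% Wilson interval 23.0 to 34.1%) were called in all 3 replicates. Their median distance was 228 kb. The 10 histone genes on chromosome 1, over 105 kb, gave 14 contacts from 4 promoter fragments at a median distance of 33.4 kb. Of the 14, 9 (64.3%, 38.8 to 83.7%) were called in all 3 replicates. For contacts under 100 kb in the chromosome 6 window it was 12 of 29 (41.4%, 25.5 to 59.3%), and the intervals overlap. Per promoter fragment the chromosome 6 window had 25.9 contacts, the protocadherin genes 7.09 and the chromosome 1 histone genes 3.50. The spans differ, so contacts over 500 kb could not occur among the chromosome 1 genes.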

How the data were processed

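Promoter capture Hi-C was measured in 3 biological replicates of hESC-CMs. The authors mapped reads with HiCUP and called contacts with CHiCAGO. The deposited files list pairs of fragments with a CHiCAGO score, for each replicate and for the merged replicates, in coordinates of GRCh37 per the labels. No read was mapped again, and tool versions are not given in the sources used here. Replicates are the samples the labels name as biological replicates. With 1 condition no comparison between groups was made and no p-value was computed.

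Members were ordered pairs of promoter and interacting fragment, pooled over the replicates without the merged calls, with 8 contacts listed in both orders. Distances are between fragment midpoints. Genes came from GENCODE 44 lifted to GRCh37, HindIII sites and motifs from the genome sequence. Listed histone genes under 200 kb apart formed a block, and a fragment belonged to a block it overlapped. Available pairs were a promoter fragment with a call anywhere and any other HindIII fragment in the window, or, elsewhere, on the chromosome within 1.9 Mb. Mean scores are over the replicates that called a contact. Wilson intervals are at 95%.

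The members, gene lists and tests were chosen with earlier results of these data known. Named were the 8 highest contacts, by mean score in all 3 replicates, between histone fragments and the 8 between blocks, which were the same contacts. Also named were the 5 promoter and 5 interacting fragments with most partners, the highest contact of each other class, and the 3 lowest and 3 highest members. Further fragments described in the text were chosen after their values were seen. Similar sequence was searched with minimap2 2.31-r1302 and blastn 2.17.0. Counting was checked on simulated data in Python 3.11.15. Alternatives were score limits of 7 and 10, leaving out each replicate, merged calls, unordered pairs, matching within 5 kb, contacts in all 3 replicates, a narrower window, and leaving out fragments of similar sequence.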

Additional observations from a re-analysis of the deposited data

How the results depend on the processing

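The number of contacts was 882 at a score of 7 or more, 483 at 10 or more, 493 when only contacts in all 3 replicates were kept, 991 in the merged calls and 1144 to 1207 when 1 replicate was left out. Contacts between different blocks numbered 388 at a score of 10 or more, 359 in all 3 replicates, 643 in the merged calls and 773 to 794 when 1 replicate was left out. The share of contacts joining 2 histone gene fragments was 43.9% at a score of 7, 50.3% at 10, 49.7% in all 3 replicates, 39.7 to 40.8% when 1 replicate was left out and 29.3% by coding sequence, a setting chosen after seeing the data. The share called in every replicate was 50.1 to 52.2% when it had to hold in only 2 replicates. It was 84.0% when a call within 5 kb at both fragments counted as the same contact, a rule that neighbouring calls can also meet. It was 36.7% without fragments 90% identical over 200 bases and 34.7% without the most shared fragment, both chosen after seeing the data, which left 863 and 828 contacts between blocks. The median distance was 935 kb in the merged calls, 940 kb for contacts in all 3 replicates and 1490 to 1493 kb when 1 replicate was left out. Blocks 1 and 3 lie 1486 to 1843 kb apart, and the union's median is just inside that range and these 2 medians are under it. The most connected promoter fragment had 28 partners at a score of 10 or more (H3C12/H2AC17), 28 in all 3 replicates (H3C10/H2AC14) and 46 to 50 when 1 replicate was left out. Without regard to the order of the pair the highest number was 78 (H4C12, tied with H3C12/H2AC17). The merged calls and the contacts in all 3 replicates give no share over replicates. No pair of fragments in contact was 95% identical over 500 bases.

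No paired analysis was possible because there was 1 group. The listing limit at a score of 5 hides weaker contacts, and depth per replicate was not analysed here. How reads of near-identical histone genes were mapped was not tested. Fragments that share baits are not independent, and 3 replicates of 1 line do not measure variation between people.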
